A study of Rattus norvegicus with 6 samples.

Results

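Genes of prostaglandin synthesis, prostaglandin reception and ovulation, 10 in all, were followed in the ovaries of early pregnant rats, where overfed pools were set against lean pools. The members were every probe set (a group of short probes on the array that together give 1 value) that the platform annotation maps only to Ptgs1, Ptgs2, Ptges, Ptgfr, Ptger2, Ptger4, Hpgd, Tnfaip6, Areg or Ereg. All 10 genes were found. They had 15 probe sets of the 31042 tested, and 10 of the 14217 genes measured. The genes Ptgs1, Ptges, Ptgfr, Hpgd and Tnfaip6 had several probe sets each, and the other 5 genes had 1.

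Female rats were fed liquid diets through a feeding tube, a method called total enteral nutrition, for 28 days. The overfed group received 220 kcal and the lean group 155 kcal per kg of metabolic body weight. All were mated with lean males, and whole ovaries were frozen at 4.5 days post coitum. Each of the 6 arrays held RNA labelled as 1 ovary pool, 3 overfed and 3 lean. The labels give neither the strain, nor the age, nor the number of animals in a pool, so p-values here measure the spread between pools. In whole ovaries, fewer cells of a type and less RNA per cell cannot be told apart.

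Prostaglandins are made from arachidonic acid, which the cyclooxygenases Ptgs1 and Ptgs2 convert to an intermediate and terminal synthases such as Ptges turn into the active forms. Prostaglandin E acts on receptors such as Ptger2 and Ptger4, which raise cAMP, and prostaglandin F acts on Ptgfr, through which it can end the life of the corpus luteum. The enzyme Hpgd inactivates both. At ovulation the surge of luteinizing hormone induces the growth factors Areg and Ereg in the follicle, which act through the EGF receptor, and Ptgs2 and the matrix protein Tnfaip6 follow. Ovulation was past when these ovaries were taken, and corpora lutea are then the prominent structures of a pregnant rat's ovary.

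Stretches of 250 bases before the annotated start were read from RefSeq (build GRCr8) for 9 of the 10 genes; Ereg was not matched. Printed here are Hpgd and Ptger2, whose groups did not overlap, Areg, which held the highest single value, and Ptges, the member with a match to the site of early growth response factors, which the series names among its subjects. Capitals mark matches on either strand to the cAMP response element (TGACGTCA) and its core (TGACG), the early growth response site (GCGNGGGCG), the C/EBP site (TTNNGNAA) and the TATA box (TATAAA), and N is any base.
Hpgd, chr16:39034832-39035081, minus strand: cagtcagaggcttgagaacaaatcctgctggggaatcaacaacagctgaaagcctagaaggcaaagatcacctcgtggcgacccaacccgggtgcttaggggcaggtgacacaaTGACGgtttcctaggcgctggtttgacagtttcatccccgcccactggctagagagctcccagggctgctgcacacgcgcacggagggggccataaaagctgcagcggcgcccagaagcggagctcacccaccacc
Ptger2, chr15:20696796-20697045, plus strand: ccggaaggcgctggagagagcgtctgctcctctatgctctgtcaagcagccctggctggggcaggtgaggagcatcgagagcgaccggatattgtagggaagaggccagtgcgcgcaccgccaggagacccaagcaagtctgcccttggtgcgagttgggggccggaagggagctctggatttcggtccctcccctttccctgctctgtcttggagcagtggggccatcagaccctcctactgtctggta
Areg, chr14:17265642-17265891, minus strand: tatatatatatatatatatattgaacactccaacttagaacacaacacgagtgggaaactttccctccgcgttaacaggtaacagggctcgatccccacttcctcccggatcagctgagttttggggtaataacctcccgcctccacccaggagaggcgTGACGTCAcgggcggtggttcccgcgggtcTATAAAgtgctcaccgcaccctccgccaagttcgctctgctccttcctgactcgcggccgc
Ptges, chr3:34586988-34587237, minus strand: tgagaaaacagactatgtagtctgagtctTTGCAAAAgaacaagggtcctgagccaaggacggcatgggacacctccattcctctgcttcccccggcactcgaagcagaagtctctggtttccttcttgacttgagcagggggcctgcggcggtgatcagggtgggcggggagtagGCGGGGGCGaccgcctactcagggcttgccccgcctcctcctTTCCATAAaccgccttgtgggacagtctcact
Counting the base before the start as -1, Areg held the full cAMP response element at -91 to -84, which contains the core on both strands, and a TATA box at -61 to -56. Hpgd held the core alone at -136 to -132, and Ptger2 held none of the marked motifs. Ptges held an early growth response site at -74 to -66 and C/EBP sites at -221 to -214 and -32 to -25. Among 33469 promoters of the same length, 1.59% held the full cAMP response element, 18.2% its core, 4.29% the early growth response site, 37.2% a C/EBP site and 12.9% a TATA box. C/EBP sites were also found before Ptgs2, Ptgfr and Tnfaip6, so 4 of the 9 member promoters held this motif. A match is a run of letters and no evidence of binding.

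The deposited values are log values, read here as log2, relative to the median of the 6 pools in each probe set. A value of 0 is therefore the middle of the 6 pools, and levels are unknown: no member can be called high or low in the ovary, and the ovarian identity of the samples could not be checked by the presence of markers. The medians of the arrays were within -0.0094 and 0.0099. Over all probe sets the SD was 0.289, 0.142 and 0.2 in overfed pools 1 to 3 and 0.170, 0.176 and 0.242 in lean pools 1 to 3. The mean of 9 bacterial and phage hybridization controls was -0.041, -0.055 and -0.25 in overfed pools 1 to 3 and 0.045, 0.060 and 0.50 in lean pools 1 to 3. Lean pool 3 stood apart in these controls and overfed pool 1 in its spread, so results are also given without both. Markers of oviduct and ciliated epithelium, another tissue that can lie beside a dissected ovary, differed between the groups: all 6 genes found of 9 listed were lower in overfed pools, 5 without overlap, with list means of -0.98, -0.18 and -0.80 in overfed pools 1 to 3 and 0.56, 0.10 and 0.85 in lean pools 1 to 3.

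Overfed ovaries were compared with lean ovaries to ask which of these genes differ with the diet. No member passed limma's test at a Benjamini-Hochberg adjusted p of 0.05 over all probe sets, and neither did any other probe set (0 of 31042, 0.0%, smallest adjusted p 0.623). At an unadjusted limma p under 0.05 there were 4 of 15 member probe sets, against 2070 of 31042 over the whole array (6.67%). The 4 were both probe sets of Hpgd, higher in overfed pools (background in that direction 3.31%), and those of Ptger2 and Ereg, lower in overfed pools (3.36%). The count was 3 when lean pool 3 and overfed pool 1 were both left out, and 2 without lean pool 1, lean pool 2 or lean pool 3. The groups did not overlap in 3 of the 15, Hpgd in both probe sets and Ptger2, where the share over the array was 12.7% (7.35% higher and 5.33% lower in overfed pools). With 1 probe set per gene, 6 of the 10 genes were higher and 4 lower in overfed pools, and their median difference was 0.017, where the median over all 14217 genes was 0.0071. The median absolute difference was 0.194 for the 10 genes and 0.091 over all genes, beside a median SD over the 6 pools of 0.319 and 0.141.

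**Figure D1:**
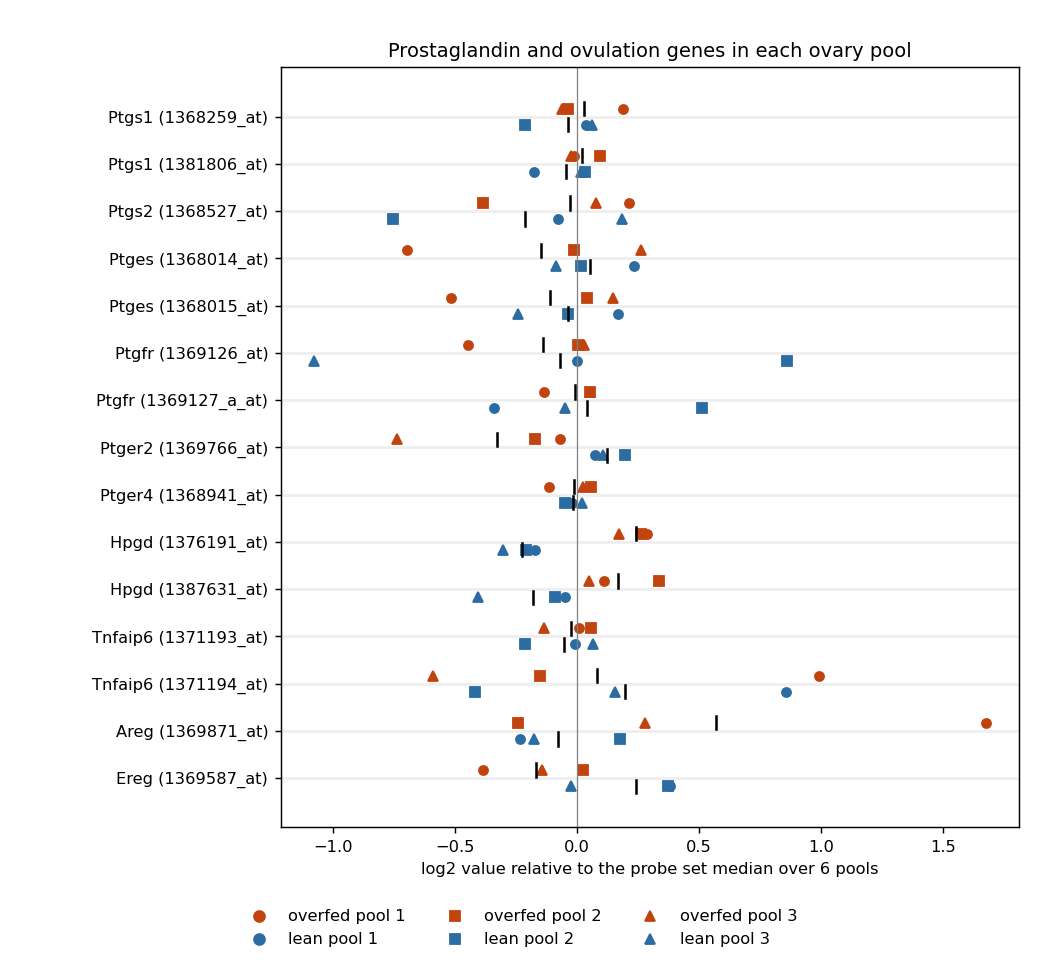
Relative log2 values (x axis) of the 15 member probe sets (rows) in the 3 overfed pools (orange, upper row of each pair) and the 3 lean pools (blue, lower row), where pool numbers have their own symbols and black bars are group means. Both Hpgd probe sets have all overfed pools above all lean pools, Ptger2 has the reverse, and Areg in overfed pool 1 lies at 1.67, away from its other 5 pools.

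Among the synthetic enzymes, Ptgs1, the cyclooxygenase that many tissues make at all times, had values of 0.19, -0.037 and -0.061 in overfed pools 1 to 3 and 0.037, -0.22 and 0.060 in lean pools 1 to 3 (probe set 1368259_at). Its groups overlapped, and all values lay within 0.40 of each other. The difference was 0.069 (SE 0.11, limma adjusted p 0.944), with a 95% interval of -0.20 to 0.34, and the other probe set gave 0.062 (SE 0.092).

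Ptgs2, the inducible cyclooxygenase on which ovulation depends in mice, stood at 0.21, -0.39 and 0.079 in overfed pools 1 to 3 and at -0.079, -0.75 and 0.18 in lean pools 1 to 3. The lowest pool of each group was pool 2, and the groups overlapped. The difference of 0.19 (SE 0.26, 95% interval -0.43 to 0.80, limma adjusted p 0.931) turned to -0.084 without lean pool 2. By root mean square difference over the 6 pools, the 3 nearest of 13877 genes were Mfap5, a microfibril protein, at 0.096, Has2, the hyaluronan synthase of the expanding cumulus matrix, at 0.136, and Aoc3, an amine oxidase of vessel walls, at 0.139. The median gene lay at 0.395. Has2 had values of 0.30, -0.41 and -0.073 in overfed pools 1 to 3 and 0.073, -0.53 and 0.10 in lean pools 1 to 3, so pool 2 was its lowest in each group too. The mean of 5 smooth muscle markers was 0.83, -0.43 and -0.61 in overfed pools 1 to 3 and 0.37, -1.08 and 0.77 in lean pools 1 to 3, with lean pool 2 the lowest of all 6 as for Ptgs2, and overfed pool 3 low where Ptgs2 was at 0.079. The smooth muscle mean lay at a root mean square difference of 0.503 from Ptgs2. The means of macrophage (0.354), mast cell (0.373), endothelium (0.427) and granulosa markers (0.442) lay nearer to Ptgs2, and each ranged less over the pools than the smooth muscle mean. A root mean square difference depends on the size of values as well as on their order over the pools. It therefore does not show which list Ptgs2 follows. The part of smooth muscle content in the Ptgs2 values was not tested.

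Ptges, which makes prostaglandin E from the cyclooxygenase product, had 2 probe sets that ran closely together, with a root mean square difference of 0.115 beside ranges that averaged 0.824. In 1368014_at the values were -0.70, -0.014 and 0.26 in overfed pools 1 to 3 and 0.23, 0.014 and -0.087 in lean pools 1 to 3. Overfed pool 1 was the lowest pool in both probe sets, and overfed pools 2 and 3 lay within or above the lean range. The differences were -0.20 (SE 0.24, limma adjusted p 0.916) and -0.073 (SE 0.19, limma adjusted p 0.968). Without overfed pool 1 they were 0.072 and 0.13, and without lean pool 1 they were -0.113 and 0.0295. The sign thus rests on overfed pool 1 in 1368014_at and on either of these pools in 1368015_at. Egr1, the early growth response factor in the series' title, differed by 0.21 (SE 0.20, limma adjusted p 0.888), with values of 0.31, -0.071 and 0.071 in overfed pools 1 to 3 and 0.31, -0.20 and -0.43 in lean pools 1 to 3. The Egr1 difference was 0.0483 without lean pool 3 and -0.0546 with both overfed pool 1 and lean pool 3 left out. Overfed pool 1 held the highest overfed value of Egr1 and the lowest of Ptges, while among the lean pools pool 1 was the highest and pool 3 the lowest for both genes. A relation between Egr1 and Ptges was not tested.

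Of the receptors, Ptger2, which couples prostaglandin E to cAMP and is needed for cumulus expansion in mice, was at -0.071, -0.18 and -0.74 in overfed pools 1 to 3 and at 0.071, 0.20 and 0.10 in lean pools 1 to 3. All overfed pools lay below all lean pools, and overfed pool 3 was far below the other two. The difference was -0.45 (SE 0.17), or 0.731 times the lean value, with a 95% interval of -0.86 to -0.042. It had an unadjusted limma p of 0.0352 and an adjusted p of 0.719, and an exact permutation test (two-sided, pools permuted) had p = 0.1, the smallest that 3 against 3 pools allow. Without overfed pool 3 the difference was -0.25 (unadjusted limma p 0.0414, adjusted p 0.911), and it stayed negative with any other pool left out, at -0.42 to -0.58, and at -0.59 with both overfed pool 1 and lean pool 3 left out. The unadjusted limma p was above 0.05 in 3 of the 6 fits with 1 pool left out, at 0.0643, 0.0912 and 0.0708 without lean pool 1, 2 or 3.

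Ptger4, the other cAMP-raising receptor of prostaglandin E, varied least of the members, with a SD of 0.062 over the 6 pools. Its values were -0.11, 0.056 and 0.023 in overfed pools 1 to 3 and -0.021, -0.052 and 0.021 in lean pools 1 to 3. The difference was 0.0054 (SE 0.083, limma adjusted p 0.995), and its 95% interval of -0.19 to 0.20 reached from 0.876 to 1.15 times the lean value. That interval overlaps the interval of Ptger2, and the difference between both receptors was not tested.

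Ptgfr, the prostaglandin F receptor, had -0.45, 0.0012 and 0.028 in overfed pools 1 to 3 and -0.0012, 0.86 and -1.08 in lean pools 1 to 3 (1369126_at), a wider spread among the lean pools. Its second probe set, 1369127_a_at, had -0.13, 0.052 and 0.052 in overfed pools 1 to 3 and -0.34, 0.51 and -0.052 in lean pools 1 to 3. Both probe sets had lean pool 2 as their highest pool but disagreed on the lowest. The differences were -0.067 (SE 0.44) and -0.050 (SE 0.21), with limma adjusted p of 0.987 and 0.980. Without lean pool 2 they were 0.40 and 0.19. The 3 genes nearest to 1369126_at were the haemoglobin-binding protein Hp, at a root mean square difference of 0.266, and the metabolic enzymes Bhmt and Miox, at 0.307 and 0.320, where the median gene lay at 0.604.

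Corpus luteum markers were set beside Ptges and Ptgfr after their values were seen. The mean of the 5 markers found of 6 listed was -0.70, 0.15 and 0.043 in overfed pools 1 to 3 and -0.026, 0.11 and -0.31 in lean pools 1 to 3. Overfed pool 1 and lean pool 3 were its lowest pools, and so they were for Ptgfr in 1369126_at and, in both probe sets, for Ptges. The other Ptgfr probe set, 1369127_a_at, went another way, with lean pool 1 lowest at -0.34 and lean pool 3 at -0.052. It lay nearer to the endothelium marker mean, at a root mean square difference of 0.206, than to the corpus luteum mean, at 0.331. The endothelium mean ranged less over the pools, and the measure depends on that range too. All 5 corpus luteum markers had differences below 0, from -0.17 to -0.029, and none had an unadjusted limma p under 0.05. The part of luteal content in the Ptges and Ptgfr values was not tested.

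The catabolic enzyme Hpgd had the lowest p of the members. In 1376191_at overfed pools 1 to 3 had 0.29, 0.26 and 0.17, against -0.17, -0.21 and -0.30 in lean pools 1 to 3. The groups were apart by more than the range within either. The second probe set, 1387631_at, had 0.11, 0.34 and 0.049 in overfed pools 1 to 3 and -0.049, -0.093 and -0.41 in lean pools 1 to 3, again without overlap. Lean pool 3 was the lowest pool in both. The difference was 0.47 (SE 0.082, 1.38-fold, 95% interval 0.28 to 0.66) in the first and 0.35 (SE 0.13, 1.27-fold, 95% interval 0.044 to 0.65) in the second. The first had an unadjusted limma p of 0.000677, rank 15 of the 31042 probe sets, and an adjusted p of 0.623, and the second an unadjusted p of 0.0304 and an adjusted p of 0.715. In the exact permutation test both had p = 0.1, again the smallest possible. With any 1 pool left out the first ran from 0.43 to 0.50 and the second from 0.24 to 0.42, and with both lean pool 3 and overfed pool 1 left out they were 0.41 and 0.26. The unadjusted limma p of the first was at most 0.0038 with any 1 pool left out, and that of the second was 0.103 without overfed pool 2, 0.0844 without lean pool 3 and 0.0897 with both lean pool 3 and overfed pool 1 left out. Macrophage markers were also higher in overfed pools, in 6 of 6 genes and without overlap in 4, with means of 0.17, 0.019 and 0.19 in overfed pools 1 to 3 and -0.13, -0.045 and -0.079 in lean pools 1 to 3. Of the 8 marker lists the macrophage mean lay nearest to both Hpgd probe sets, at root mean square differences of 0.16 and 0.201. The same list was nearest to Ptgs1 in 1368259_at (0.156), Tnfaip6 in 1371193_at (0.182) and Ptgs2 (0.354), whose groups overlapped. The macrophage mean varied little, between -0.13 and 0.19, and the measure depends on the size of values as well as their order over the pools. Nearness therefore does not show which genes follow these markers. Overfed pool 2, the lowest overfed pool for the macrophage markers, lay between the other two in 1376191_at and was the highest in 1387631_at. The part of macrophage content in the Hpgd values was not tested.

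**Figure D2:**
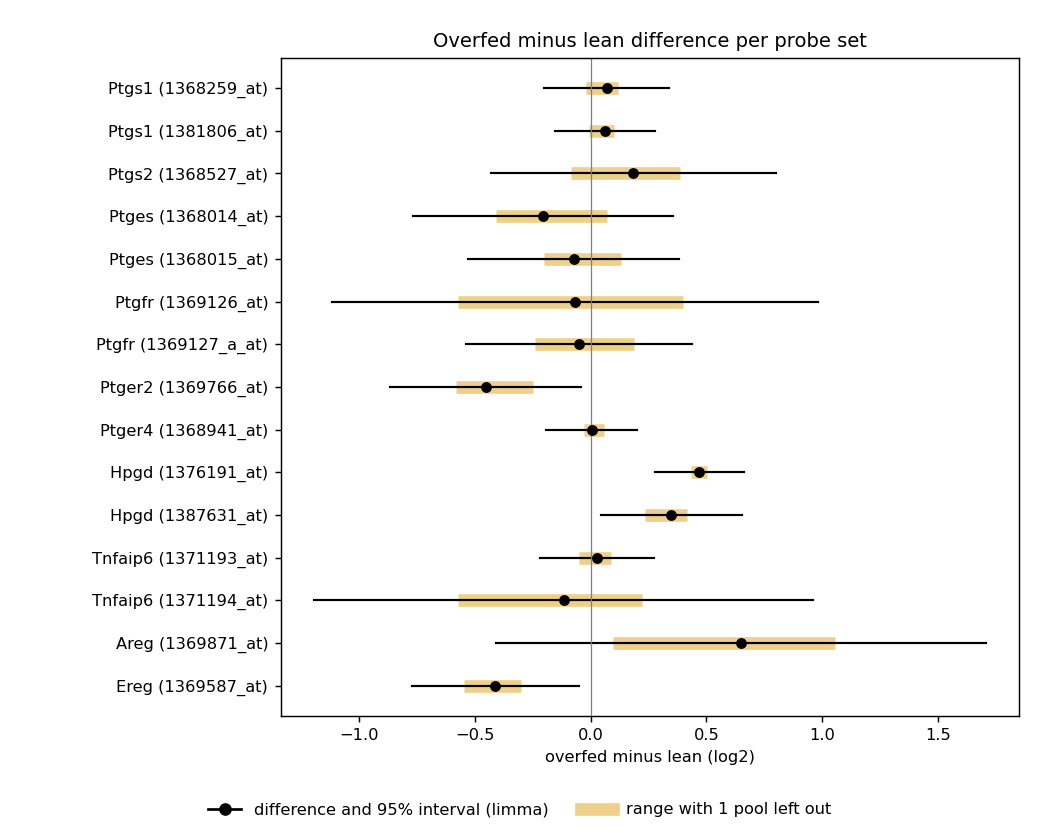
Overfed minus lean difference on the log2 scale (x axis) for each of the 15 member probe sets (rows), with points for the limma estimate, black lines for its 95% interval and yellow bars for the range with 1 pool left out. The intervals of Ptger2, both Hpgd probe sets and Ereg lie to 1 side of 0, and the leave-out bar of Areg reaches from 0.095 to 1.05.

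Of the EGF-like growth factors, Areg, an early signal of the ovulatory follicle, had 1.67, -0.24 and 0.28 in overfed pools 1 to 3 and -0.24, 0.18 and -0.18 in lean pools 1 to 3. Overfed pool 1 alone was high, and the other 5 pools lay between -0.24 and 0.28. The difference of 0.65 (SE 0.45, 95% interval -0.41 to 1.70, limma adjusted p 0.847) shrank to 0.095 when overfed pool 1 was left out and reached 1.05 when overfed pool 2 was. With both overfed pool 1 and lean pool 3 left out it was 0.047. The 3 genes nearest to Areg were the collagen gene Col22a1, the neurotrophin receptor gene Ngfr and the syntrophin gene Sntg2, at root mean square differences of 0.226, 0.241 and 0.249, and each was high in overfed pool 1 alone, at 1.49, 1.42 and 1.42.

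Ereg, the partner of Areg in the follicle, had -0.39, 0.026 and -0.14 in overfed pools 1 to 3 and 0.38, 0.37 and -0.026 in lean pools 1 to 3. Only overfed pool 2 and lean pool 3 crossed, by 0.026 against -0.026. The difference was -0.41 (SE 0.15, 0.752 times the lean value, 95% interval -0.77 to -0.049), with an unadjusted limma p of 0.0311 and an adjusted p of 0.715. Its p in the exact permutation test was 0.2. Leaving out single pools gave differences from -0.30 (overfed pool 1) to -0.54 (lean pool 3), all 6 of them negative, and leaving out both overfed pool 1 and lean pool 3 gave -0.435. The unadjusted limma p was above 0.05, at 0.0633 to 0.1, in 4 of the 6, those without overfed pool 1 or 3 or lean pool 1 or 2. In overfed pool 1 the growth factors lay at opposite ends, Areg at its highest and Ereg at its lowest of the 6 pools, and the difference between both genes was not tested. Granulosa cell markers, from the cells that make both factors in a preovulatory follicle, were higher in 4 of the 5 genes found, with means of -0.11, 0.038 and 0.32 in overfed pools 1 to 3 and -0.34, -0.020 and -0.29 in lean pools 1 to 3. The granulosa mean lay at root mean square differences of 0.746 from Areg and 0.413 from Ereg. It was the nearest marker list to neither, as theca lay at 0.607 from Areg and endothelium at 0.245 from Ereg. By this measure a mean of small range, as for endothelium, can lie near a gene without following its order over the pools. The part of granulosa cell content in the values of Areg and Ereg was not tested.

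Tnfaip6, which cross-links hyaluronan in the cumulus matrix, gave unlike pictures in its 2 probe sets. In 1371193_at overfed pools 1 to 3 had 0.0072, 0.056 and -0.13 and lean pools 1 to 3 had -0.0072, -0.21 and 0.063, a range of 0.276. In 1371194_at overfed pools 1 to 3 had 0.99, -0.15 and -0.59 and lean pools 1 to 3 had 0.85, -0.42 and 0.15, a range of 1.58. Pool 1 was high in both groups of the second probe set and the groups overlapped in each. The differences were 0.029 (SE 0.10) and -0.11 (SE 0.46), with limma adjusted p of 0.976 and 0.979. Of the marker lists, the smooth muscle mean lay nearest to 1371194_at, at a root mean square difference of 0.44, and its part in these values was not tested. Since levels are unknown, neither probe set can be preferred for its signal.

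**Figure D3:**
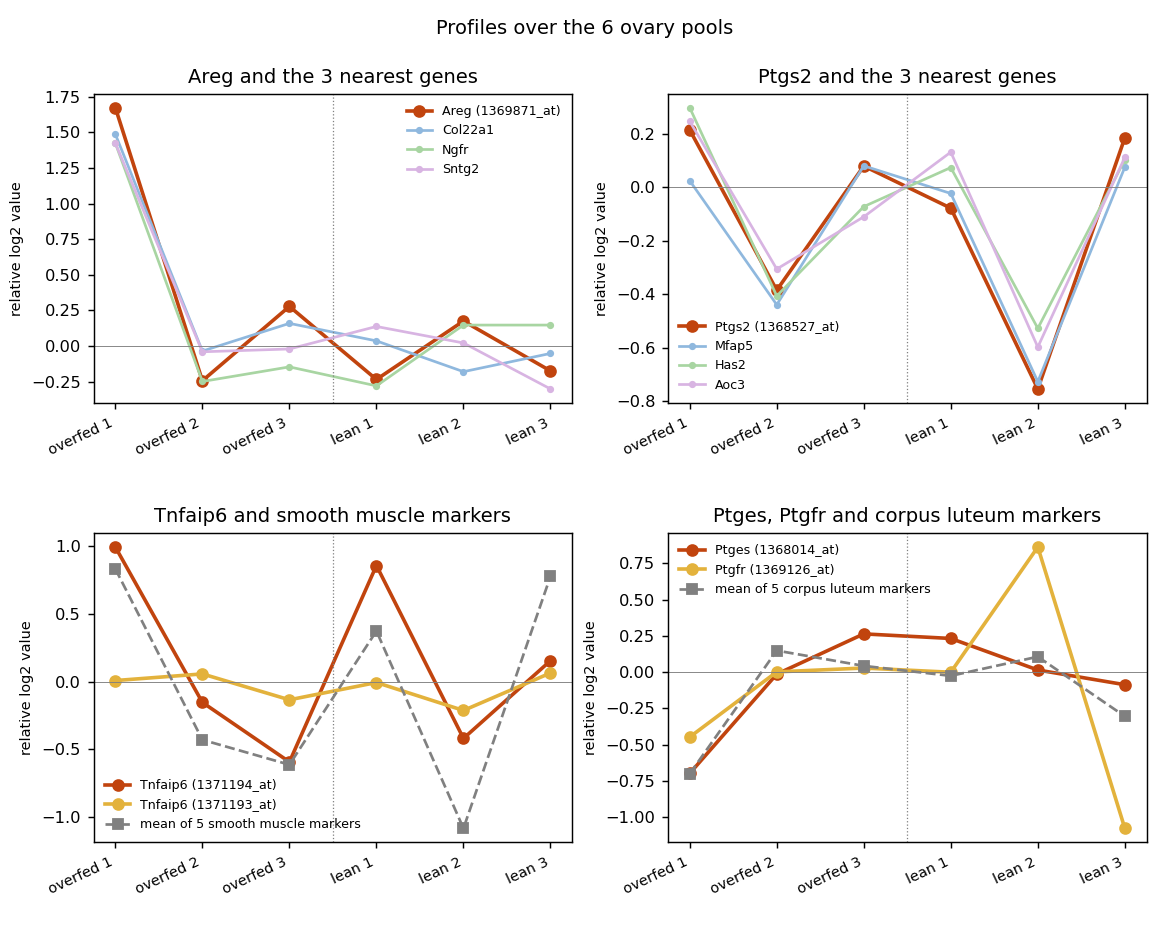
Relative log2 values (y axis) across the 6 pools, overfed pools left of the dotted line and lean pools right of it, for Areg and Ptgs2 with their 3 nearest genes (top) and for Tnfaip6, Ptges and Ptgfr with the mean of smooth muscle or corpus luteum markers (bottom, dashed). Areg and its neighbours are high in overfed pool 1 alone, and Ptgs2 and its neighbours are lowest in lean pool 2.

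Other genes of prostanoid metabolism and reception were split evenly. Of 18 found of 20 listed, 9 were higher and 9 lower in overfed pools, with a median difference of -0.00088 beside 0.0071 over all genes. An unadjusted limma p under 0.05 was reached by 1 gene in each direction, 11.1% of the list, where 7.15% of all genes did. Hpgds, which makes prostaglandin D in blood-derived cells, had -0.20, -0.072 and -0.45 in overfed pools 1 to 3 and 0.45, 0.072 and 0.41 in lean pools 1 to 3. Its groups did not overlap, and its difference was -0.55 (SE 0.14, 0.683 times the lean value, limma adjusted p 0.623). Ptgdr2, a receptor of prostaglandin D, differed by 0.25 (SE 0.084, limma adjusted p 0.701), with 0.060, 0.13 and 0.15 in overfed pools 1 to 3 and -0.11, -0.060 and -0.23 in lean pools 1 to 3. Ptgr1, a reductase that acts on the products of Hpgd, differed by -0.39 (SE 0.17, limma adjusted p 0.751) with overlapping groups. It had -0.62, 0.033 and -0.31 in overfed pools 1 to 3 and 0.066, -0.033 and 0.25 in lean pools 1 to 3, and the difference was -0.232 without overfed pool 1 and -0.154 with lean pool 3 left out as well. Mast cell markers, a class of cells that makes prostaglandin D, had differences from -0.021 to 0.25, 3 of 4 above 0.

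Of the other ovulatory genes, 21 found of 23 listed, 15 were higher and 6 lower in overfed pools, where 7428 of all 14217 genes were higher. Their median difference was 0.11 (0.058 with quantile normalization), and 1 gene in each direction had an unadjusted limma p under 0.05 (9.52%). Egfr, the receptor on which Areg and Ereg act, had 0.22, 0.46 and 0.11 in overfed pools 1 to 3 and -0.28, -0.30 and -0.11 in lean pools 1 to 3. All overfed pools lay above all lean pools, and the difference was 0.49 (SE 0.11, 1.41-fold, limma adjusted p 0.623). A second probe set of Egfr gave 0.42 (SE 0.14) without overlap, while the third gave -0.040 (SE 0.091). Plat, the tissue plasminogen activator, had -0.32, -0.11 and -0.36 in overfed pools 1 to 3 and 0.64, 0.11 and 0.37 in lean pools 1 to 3. It differed by -0.64 (SE 0.15, 0.642 times the lean value, limma adjusted p 0.623) without overlap. Cebpa, a transcription factor of granulosa cells, differed by -0.29 (SE 0.12, limma adjusted p 0.751), and its 4 other probe sets lay between -0.18 and 0.049 and each turned sign with at least 1 pool left out. Groups did not overlap in 4 of the 21 genes, 3 higher and 1 lower (19.0%, against 13.1% of all genes). Beside Egfr and Plat these were the protease Adamts1 at 0.52 (SE 0.24) and the cytokine Il6 at 0.20 (SE 0.11), named after their values were seen, with limma adjusted p of 0.770 and 0.829. Adamts1 had 0.97, 0.0040 and 0.28 in overfed pools 1 to 3 and -0.0040, -0.25 and -0.055 in lean pools 1 to 3, and without overfed pool 1 it differed by 0.243. Il6 had 0.040, 0.32 and 0.0049 in overfed pools 1 to 3 and -0.0049, -0.15 and -0.070 in lean pools 1 to 3, and without overfed pool 2 it differed by 0.0978. The groups of both genes were thus barely apart. In the oviduct marker means, as in Plat and Hpgds, pool 2 of each group lay nearest to the other group. In Ptger2 it was pool 1 of each group, and in Ereg overfed pool 2 and lean pool 3. The part of oviduct content in the values of Plat, Hpgds, Ptger2 and Ereg was not tested.

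**Figure D4:**
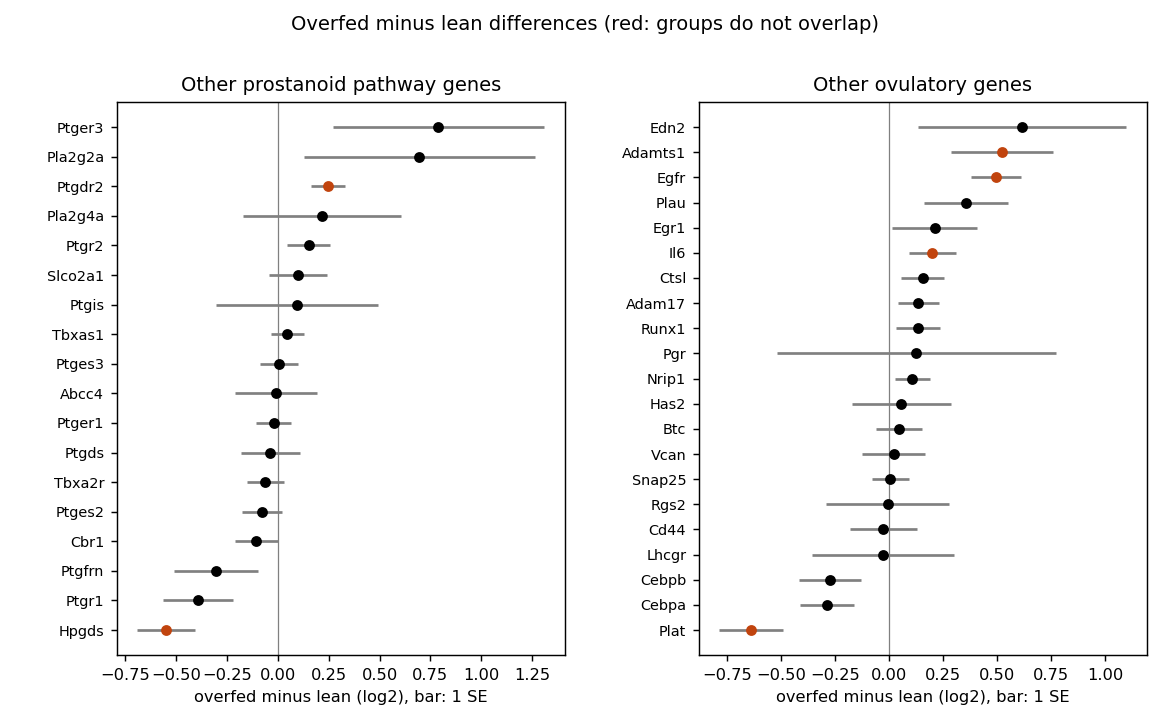
Overfed minus lean difference on the log2 scale (x axis, bars 1 SE) of the 18 other prostanoid pathway genes (left) and the 21 other ovulatory genes (right), red where the groups do not overlap. The prostanoid genes lie 9 on each side of 0, and 15 of the ovulatory genes lie above 0.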

How the data were processed

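Per the labels, total RNA from ovary pools was hybridized to 6 arrays after biotin labelling. The deposited log2 values were made by the authors and centred per probe set, with 6 values whose median never left 0 by more than 1e-06. GCOS is the software named in the submitters' processing notes. How probe sets were summarised and arrays normalized is not given in the sources used here, nor is the base of the logarithm. Base 2 was assumed, and with natural logarithms each fold would lie farther from 1. Scanner files were not used.

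Of 31099 probe sets, 57 array controls were left out. Symbols came from the platform annotation and were updated through a RefSeq table (20758 matched). Among the tested probe sets 20826 had 1 gene name, 436 several and 9780 none. The representative of a gene was its probe set of unique type with the lowest identifier. Overfed minus lean was fitted in limma 3.58.1 (R 4.3.3) with lmFit and eBayes, without trend or covariate, on all probe sets, two-sided, with Benjamini-Hochberg adjustment at 0.05. Scripts were tested on simulated data. Promoter motifs were searched on both strands in Python 3.11.15, and figures were drawn with matplotlib 3.10.9. Exact permutation tests used SciPy 1.17.1.

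The members and gene lists were chosen with earlier results of these data known. The text names all members, the 3 genes of lowest p in each other list and the 3 genes nearest to each of the 3 member genes whose representative probe sets had the largest SD (Areg, Ptgfr and Ptgs2). The number of pools limits the precision. Alternatives were quantile normalization, array median centring, a robust prior, array weights, a pool block, each pool left out, the 25% of probe sets of smallest SD left out and the mean over a gene's probe sets. Leaving out lean pool 3 and overfed pool 1 together was added after the data were seen.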

Additional observations from a re-analysis of the deposited data

How the results depend on the processing

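Alternatives were run on the members, the medians of the other 2 lists and every other probe set of both lists whose difference is given, not on the nearest genes or the marker lists. The mean over a gene's probe sets was run for the 3 medians only. Of 387 values of single probe sets under 13 alternatives, 349 kept their direction and 0 passed the adjusted threshold in limma. Hpgd in both probe sets, Ptger2, Areg and Ereg kept their direction throughout, and the other 10 member probe sets turned at least once. The cause of a turn was not tested. With the 25% of probe sets of smallest SD left out, 13 of the 15 member probe sets remained and limma called 1 probe set, which was no member. With the pool number as a replicate block, 4 member probe sets and 1757 of all probe sets had an unadjusted p under 0.05, and 0 passed after adjustment. Deviations of same-numbered pools correlated at 0.097, 0.17 and -0.28, where those of differently numbered pools ran from -0.42 to 0.40. Whether the number marks a shared day or batch is not in the labels and cannot be told from so few pools. In the main fit 0 probe sets had passed as well, so there was no call for the block to remove. With 1 pool left out, 2 to 4 member probe sets had an unadjusted p under 0.05. The members' median difference then ran from -0.0353 to 0.0597, that of the other prostanoid genes from -0.0415 to 0.0351. The members' median was 0.0414 with array weights, 0.0435 with lean pool 3 and overfed pool 1 both left out and -0.0188 with a gene's probe sets averaged. The filter on SD gave the other prostanoid genes a median of 0.0434. The other ovulatory genes had 0.0575 with quantile normalization, 0.0577 with array weights and 0.169 with both pools left out. Values that turned with 1 pool left out ran as follows. Ptgs1 had -0.019 to 0.119 in 1368259_at and -0.00498 to 0.0997 in 1381806_at, and Ptgs2 -0.0838 to 0.385. Ptges had -0.409 to 0.0717 in 1368014_at and -0.202 to 0.131 in 1368015_at, and with both doubted pools left out 0.00166 and 0.0285. Ptgfr had -0.57 to 0.40 in 1369126_at and -0.24 to 0.186 in 1369127_a_at, this one at 0.00289 with array weights. Ptger4 had -0.0282 to 0.0567, and -0.00262 with array median centring. Tnfaip6 had -0.0516 to 0.0864 in 1371193_at and -0.569 to 0.222 in 1371194_at. The third probe set of Egfr had -0.108 to 0.0169. Cebpa had -0.429 to 0.121 in 1383242_a_at, -0.136 to 0.165 in 1383243_at, -0.324 to 0.246 in 1384126_a_at and -0.368 to 0.168 in 1384127_at. With both doubted pools left out 1383242_a_at, 1384126_a_at and 1384127_at had 0.236, 0.348 and 0.265, and with array weights 0.0274, 0.138 and 0.0778. With quantile normalization 1384126_a_at had 0.0946 and 1384127_at 0.0119. Egr1 was -0.0546 with both doubted pools left out. Areg was 0.35 with quantile normalization and 0.378 with array weights. Signal over background is unknown in centred values, so no probe set could be left out as dim.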
